A study of Homo sapiens with 6 samples.

Results

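The 64 genes described here are the human forkhead (FOX) and SOX transcription factor genes, taken from 19974 protein-coding RefSeq genes on chromosomes 1 to 22 and X. Members were chosen by symbol alone: FOX followed by 1 letter and digits (45 genes), or SOX followed by digits (19 genes). The assay was ATAC-seq, which uses a transposase to cut and tag accessible DNA, applied to nuclei of Jurkat, a widely used leukaemic T-cell line of human origin. The normal gravity group (NG) and the simulated microgravity group (SMG) hold 3 libraries each, of 50000 cells per library. Both were grown alike in serum-containing medium, lysed for 3 min, and tagged at 37 °C for 30 min. Per the labels, what was rotated in the SMG group was isolated nuclei, in a random positioning machine at 30 degrees per second for 30 min. Intact cells were therefore not exposed, and all libraries come from a single cultured line. The labels leave unsaid whether replicate libraries stem from separate cultures; a p-value therefore reflects only the spread among these libraries, which may be technical.

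Forkhead proteins bind DNA through a winged-helix domain, and some of them, such as the FOXA proteins, can bind sites in compact chromatin. SOX proteins bind and bend DNA through an HMG box related to that of the sex-determining factor SRY. Most members of both families direct the formation of particular organs, whereas the FOXO, FOXP, FOXJ, FOXK and FOXN groups and SOX4 also act in lymphocytes or in many tissues. In T cells FOXO1 and FOXP1 are known for maintaining quiescence, FOXP3 for specifying regulatory T cells, and SOX4 for roles in T cell development.

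The files are lists of called peaks, not read counts, so a gene is here either open, with a called peak, or without one in a given library. A gene was called open if a peak overlapped the window of 1 kb to each side of either gene end. A library without a peak does not show closed chromatin, since signal under the caller's threshold is not in the lists. The strength of a peak is given as its score percentile, the rank of its −log10 q-value among all peaks of its own library, with 100 the strongest. Ranks describe a peak within its library and were not tested between groups. Where groups are said to overlap in rank, this is a description only. Libraries held between 37782 and 43713 peaks, and NG 1 stood apart with the fewest peaks and the fewest open genes (10138, against 10450 to 11000 in the other libraries). NG 1 also lacked 12 of the 14 members that were open in only part of the libraries, while each other library lacked 4 to 6 of them. Over all protein-coding genes, NG 1 lacked 1914 of the 2729 that were open in 1 to 5 libraries. T cell markers fixed for a check of the label were open in all 6 libraries at 9 of 10 genes, CD3E, CD2 and CD3D most strongly. Of 6 B cell, 6 myeloid, 5 epithelial and 6 neural markers, 1, 0, 0 and 0 were open in all 6 libraries, and 5, 6, 4 and 4 in none.

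Most FOX and SOX genes had no called peak at either gene end in these T-lineage nuclei. Of the 64 members, 16 (25%) were open in all 6 libraries, 14 (21.9%) in 1 to 5 libraries and 34 (53.1%) in none. Over all 19974 protein-coding genes the shares were 46.7%, 13.7% and 39.7%. The FOX genes divided into 11, 11 and 23 genes of 45, and the SOX genes into 5, 3 and 11 of 19. Among KLF genes, a family of zinc-finger factors, 6 of 18 were open in all 6 libraries and 5 in none. Among the HOX genes, which pattern the body axis, 4 of 39 were open in all 6 and 27 in none. Counting a region inside the gene as well, 21 members (32.8%) held at least 1 region called in all 6 libraries, against 59.2% of all protein-coding genes. A total of 30 of the 64 members had no called peak in any library, neither at a gene end nor inside the gene. Over all protein-coding genes this held for 4847 of 19974. These are counts of single genes and were not tested against each other. Members are short genes, with a median length of 4.92 kb against 24.2 kb over all protein-coding genes. The part of gene length in these shares was not tested. Median length was 20.8 kb for members open in all 6 libraries and 3.99 kb for those open in none, and 29.8 kb and 16.8 kb over all protein-coding genes.

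**Figure D1:**
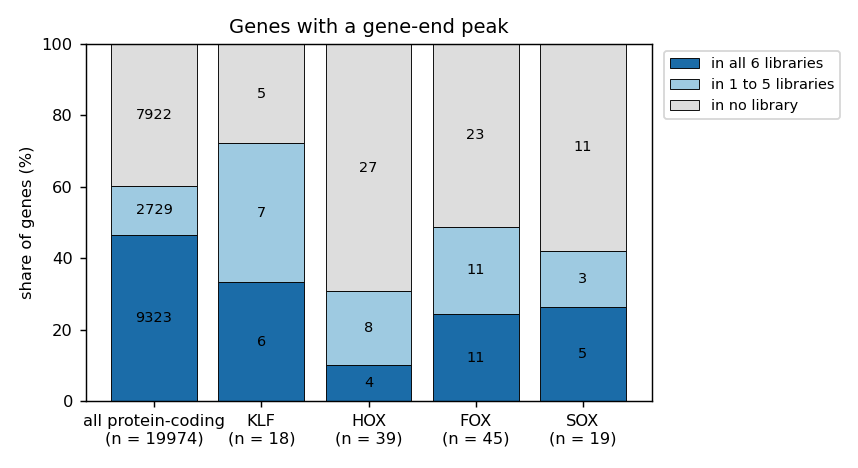
Share of genes (y axis, %) with a gene-end peak in all 6 libraries, in 1 to 5 or in none, for all protein-coding genes and for the KLF, HOX, FOX and SOX genes (x axis). Numbers in the bars are gene counts; 23 of 45 FOX and 11 of 19 SOX genes were open in no library.

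Among the SOX genes, the groups C and D held 4 of the 5 that were open throughout. SOX4, a group C factor, lay alone on chromosome 6, with a region of 1017 bp over its start site (21593353 to 21594369, hg38) in every library. Its score percentile was 95.7, 90.5 and 86.9 in the NG libraries, listed here and later by replicate number, and 94.3, 87.3 and 89.0 in the SMG libraries. The groups overlapped, and the peak stood in the upper part of each list. The summit lay within 78 bp of the start site in all 6 libraries, at positions from −78 to 14 relative to it. SOX12, a second group C factor, had a region upstream of its start (chromosome 20, 324162 to 325402) at percentiles of 87.2, 73.4 and 79.7 in NG and 82.2, 86.5 and 90.1 in SMG. Its summits fell between −1008 and −996 relative to the start site, within 12 bp of each other. SOX11, the remaining group C factor and a gene of neural progenitors, was open at 1 gene end in 4 libraries only. In group D, SOX6, which acts in cartilage, muscle and erythroid cells, had the highest mean gene-end percentile of all members, 97.8. The forkhead gene FOXN2 (mean 97.3) ranked above SOX6 in NG 1, SMG 1 and SMG 2. SOX6 stood at percentiles of 95.3, 99.2 and 98.8 in NG and 96.8, 97.7 and 99.3 in SMG. SOX5, its close relative, had a weaker peak at its start site, at 29.6, 63.9 and 42.8 in NG and 71.1, 65.6 and 38.2 in SMG. SOX13, also of group D and known from gamma-delta T cells, lacked a gene-end peak in all 6 libraries. SOX15, the only group G gene, was open throughout at a mean percentile of 44.2.

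Of the 11 forkhead genes open in all 6 libraries, the FOXO and FOXJ groups held 3 each. The FOXA, FOXD, FOXM, FOXN and FOXP groups held 1 each. FOXN2 led, with a region of 884 bp (chromosome 2, 48313989 to 48314872) 330 bp from the gene end, at percentiles of 97.3, 96.8 and 97.1 in NG and 98.2, 98.5 and 95.8 in SMG. All 3 FOXJ genes were open throughout: FOXJ1, which drives the programme of motile cilia and restrains T cell activation, at a mean percentile of 61.0, FOXJ3 at 60.7 and FOXJ2 at 33.3. Of the FOXO genes, which act downstream of PI3K and AKT, FOXO6, FOXO3 and FOXO4 were open throughout, at mean percentiles of 68.3, 55.9 and 53.3. FOXP4 stood at 75.7, 78.6 and 73.5 in NG and at 57.7, 73.8 and 75.9 in SMG. FOXM1, an activator of genes for G2 and mitosis, was open throughout but ranged widely, at 15.7, 45.8 and 57.2 in NG and 20.1, 20.7 and 0.78 in SMG. SMG 3 was lowest, and the groups overlapped. FOXD2, a gene of kidney and head mesenchyme, and FOXA3, a hepatic factor, were the organ-specific forkhead genes with strong peaks. FOXD2 had percentiles of 93.1, 92.9 and 90.3 in NG and 93.8, 88.6 and 89.0 in SMG, over a region of 1774 bp (chromosome 1, 47436382 to 47438155), the widest of the 61 regions at members that all 6 libraries held. FOXE3, a lens gene 18.3 kb from that region, had no peak. FOXA3 had percentiles of 93.1, 89.5 and 93.9 in NG and 93.5, 86.9 and 92.0 in SMG.

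**Figure D2:**
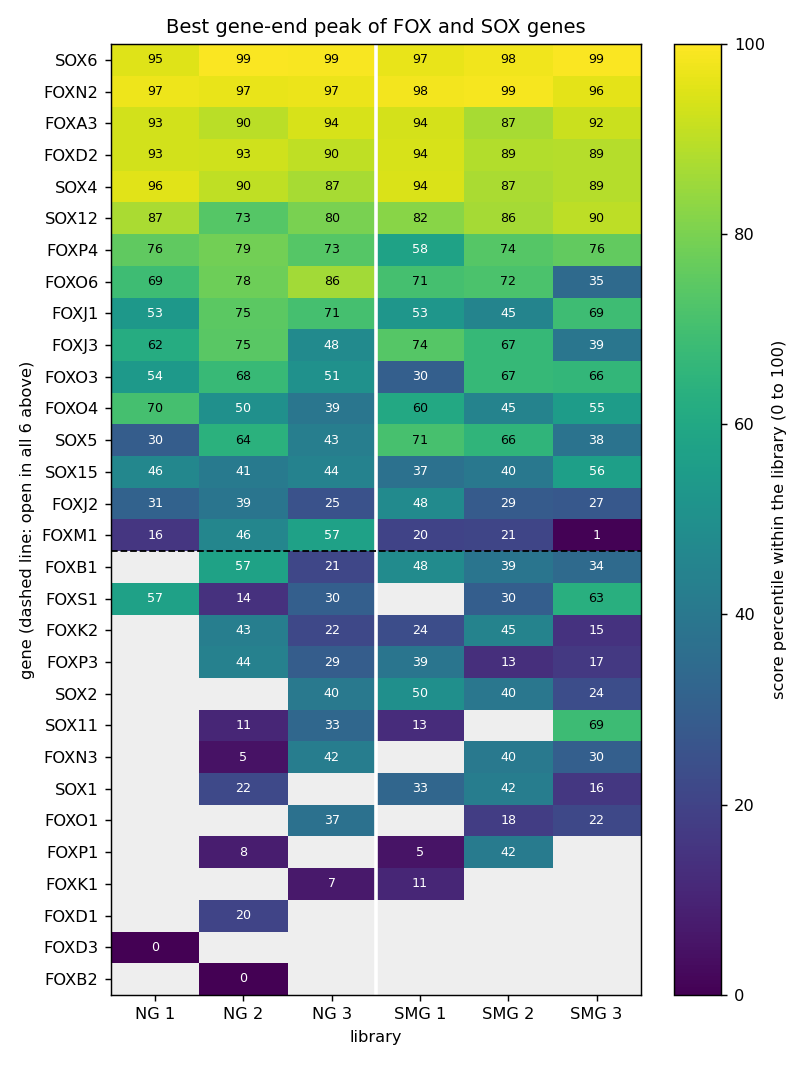
Score percentile (colour and number) of the best gene-end peak of each open FOX or SOX gene (rows) in the 6 libraries (columns); grey marks no peak. The 16 genes above the dashed line are open in all 6 libraries, and NG 1 lacks 12 of the 14 genes below it. Over all protein-coding genes open in 1 to 5 libraries, NG 1 lacks 1914 of 2729.

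Start-site sequences of a SOX and a forkhead gene that were open throughout are given because they differ in base composition. They are the 250 bases before the RefSeq start site, 5′ to 3′ on the gene's strand, from RefSeq sequence of GRCh38.p14, with CpG dinucleotides in capitals.
SOX4 (chr6:21593501-21593750, plus strand): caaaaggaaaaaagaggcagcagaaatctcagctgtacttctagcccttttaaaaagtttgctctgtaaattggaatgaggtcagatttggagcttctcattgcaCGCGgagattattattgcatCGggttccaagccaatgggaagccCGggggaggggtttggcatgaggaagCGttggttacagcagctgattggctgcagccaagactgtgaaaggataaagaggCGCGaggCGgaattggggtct
FOXD2 (chr1:47437794-47438043, plus strand): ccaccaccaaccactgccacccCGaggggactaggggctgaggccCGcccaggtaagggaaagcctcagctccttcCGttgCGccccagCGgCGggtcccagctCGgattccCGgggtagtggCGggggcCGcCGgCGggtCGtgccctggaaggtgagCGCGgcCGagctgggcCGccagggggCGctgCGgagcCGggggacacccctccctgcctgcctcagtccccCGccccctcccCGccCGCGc
The stretch shown for SOX4 holds 8 CpG dinucleotides at 48.8% G and C, and that of FOXD2 24 at 76.8%. Both lie within the region held by every library, so a high CpG number was not shared by these members.

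The gene-end peak of a member need not be its own. Of the 16 members open in all 6 libraries, 6 (37.5%) had the end of another protein-coding gene within 1 kb of their best region, close to the 34.1% of all 9323 genes open in all 6. The region at FOXA3 (chromosome 19, 45862425 to 45863718) lay 608 bp before the start of FOXA3 and overlapped the end of SYMPK, a scaffold of mRNA 3′ processing. The region at SOX6 (chromosome 11, 16737908 to 16739150) covered the start of SOX6 and an end of C11orf58. The stronger of 2 regions at FOXO4 covered the far end of the gene and an end of CXorf65, whereas the region over the FOXO4 start ranked lower, from 13.0 to 47.9. The regions at FOXM1, FOXJ1 and SOX15 covered an end of their own gene and did not reach the other gene's end. An end of RHNO1 lay 629 bp from the FOXM1 region, of RNF157 764 bp from that of FOXJ1, and of FXR2 980 bp from that of SOX15. At SOX12, FOXD2 and FOXN2 the nearest other end was that of a long noncoding RNA, NRSN2-AS1, LINC01389 and LOC124907766, which the region overlapped. SOX4, by contrast, had no other protein-coding gene end within 70 kb of its region. Of the 44 members whose start site the reference places, 12 were open in all 6 libraries at either end and 11 of these at the start site. The exception was FOXO3, a factor of stress resistance. Its start was called in NG 3, SMG 1, SMG 2 and SMG 3, at percentiles of 50.7, 30.1, 50.5 and 43.5, and in neither NG 1 nor NG 2. A region at its far end (chromosome 6, 108685755 to 108686558), 981 bp from the gene end, was held by all 6 libraries, but its peaks reached into the window in 4 of them, NG 1, NG 2, SMG 2 and SMG 3. FOXO3 thus counted as open throughout through different ends in different libraries.

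The T-cell forkhead genes FOXO1, FOXP1 and FOXP3 were open in only part of the libraries. FOXO1, a sensor of growth signals that keeps T cells quiescent, had a start-site peak in NG 3, SMG 2 and SMG 3, at percentiles of 37.2, 18.3 and 21.8. In the other libraries the nearest peak was 53.0 to 68.5 kb from a gene end. FOXP1 had a peak at its start in NG 2, SMG 1 and SMG 2, at 8.03, 5.09 and 41.7. FOXP3 had none within 1 kb of its start site in any library. Its gene-end peaks lay at the far end of the gene in 5 libraries. Their percentiles were 44.1 and 29.4 in NG 2 and NG 3 and 38.8, 13.3 and 16.6 in SMG. NG 1 was the library without one. The region 140 bp from an end of CCDC22 was held by NG 2 and the SMG libraries, and its neighbour by NG 3 and the SMG libraries. The 250 bases before the FOXP3 start are shown because this start had no called peak, together with those of SOX2, whose start was called in 4 libraries.
FOXP3 (chrX:49264711-49264960, minus strand): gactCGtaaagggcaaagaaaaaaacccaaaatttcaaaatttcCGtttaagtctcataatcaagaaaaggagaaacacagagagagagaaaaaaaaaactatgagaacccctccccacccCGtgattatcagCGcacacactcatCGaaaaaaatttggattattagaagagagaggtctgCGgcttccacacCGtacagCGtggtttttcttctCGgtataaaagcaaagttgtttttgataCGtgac
SOX2 (chr3:181711675-181711924, plus strand): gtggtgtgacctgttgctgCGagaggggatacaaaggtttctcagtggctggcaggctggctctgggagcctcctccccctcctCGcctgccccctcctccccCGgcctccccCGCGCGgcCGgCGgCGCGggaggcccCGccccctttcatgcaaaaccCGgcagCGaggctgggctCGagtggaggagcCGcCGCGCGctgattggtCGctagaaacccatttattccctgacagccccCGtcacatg
The FOXP3 stretch has 39.6% G and C and 10 CpG dinucleotides, and the SOX2 stretch 68.8% and 20. FOXP3 also held an inner region (chromosome X, 49257086 to 49257836) in 5 libraries, at 49.3 and 5.48 in NG 2 and NG 3 and 12.7, 42.1 and 37.7 in SMG.

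SOX1 and SOX2, group B1 factors of neural and pluripotent cells, were the only members whose number of open libraries differed between groups by 2 or more. SOX2 had a peak before its start (chromosome 3, 181711301 to 181711841) in NG 3 at 40.3, and in SMG 1, SMG 2 and SMG 3 at 49.9, 39.5 and 23.8. SOX1 had one (chromosome 13, 112066139 to 112066698) in NG 2 at 22.3, and in the SMG libraries at 33.1, 42.4 and 16.2. At both genes each SMG library and 1 NG library had the peak, and NG 1 lacked both. The peaks were of middle to low rank. SOX3, the remaining group B1 gene, had no called peak within 67 kb. Among all protein-coding genes 0.946% had 2 or more SMG libraries above the number of NG libraries, and 0.786% the reverse. The counts for members were 2 and 0 of 64, and no test was made of a list.

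The 1 kb limit decided some calls. FOXN3, a repressor linked to cell cycle checkpoints, was called open in 4 libraries, yet all 6 held the same region near its start (chromosome 14, 89617573 to 89618276). In NG 1 and SMG 1 the peak began 1113 and 1122 bp from the gene end, just outside the window, and at FOXO3 the far-end region lay 981 bp away, just inside. FOXK2, a factor acting on genes of metabolism and autophagy, was open at its far end in 5 libraries and at its start in NG 2 and SMG 3 only. FOXK1, its paralogue, had start-site peaks in NG 3 and SMG 1 at 6.88 and 10.9. FOXB1, a gene of the developing brain, had a peak at its far end in 5 libraries, at 57.4 and 21.5 in NG 2 and NG 3 and 48.1, 38.7 and 34.4 in SMG. FOXS1 was open in 5 libraries, all but SMG 1, through a region 614 bp from an end of DUSP15. The calls at FOXD1, FOXD3 and FOXB2 rested on 1 library each, at percentiles of 20.4, 0.11 and 0.025. Of the 4 members open in exactly 5 libraries, NG 1 was the missing one for 3 and SMG 1 for FOXS1. Over all 712 genes of that kind NG 1 was the missing library for 45.4%.

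Most regions at members that all 6 libraries held lay away from the gene ends. Of 61 such regions, at members of any length, 42 (68.9%) lay inside a gene and outside the gene-end windows. Their median percentile was 62.2, against 61.3 for the 19 regions at gene ends. This share was not counted over all genes, and the part of gene length in it was not tested. Counting all constant regions inside the gene, those at its ends included, FOXP1 and FOXN3 held 10 each, SOX6 held 6, SOX5 held 5, and FOXJ3 and FOXK2 held 4 each. On the same count FOXK1, FOXN2, FOXO3, FOXO4 and FOXP4 held 2 each. None of those in FOXP1, FOXK1, FOXK2 and FOXO3 touched a gene-end window, whereas both of those in FOXO4 and 1 each in FOXN3, SOX6, SOX5, FOXJ3, FOXN2 and FOXP4 did. FOXP1, a gene of 629.3 kb, had its strongest regions 139 kb and 211 kb into the gene (chromosome 3, 71443894 to 71444936 and 71372492 to 71373534). The first stood at percentiles of 95.1, 95.2 and 92.6 in NG and 97.6, 97.2 and 95.7 in SMG, and the second at 93.6, 94.6 and 89.0 in NG and 97.3, 95.1 and 96.3 in SMG. Both outranked the FOXP1 start-site peak in every library that called it. Whether an inner transcription start of FOXP1 lies there was not tested. The strongest inner region of SOX5 (chromosome 12, 24424746 to 24425843), 137 kb into the gene, stood at 90.8, 97.9 and 94.4 in NG and 96.4, 95.2 and 96.4 in SMG, also above the SOX5 start. FOXN3 had its strongest region 226 kb into the gene (chromosome 14, 89393111 to 89393940, mean percentile 88.6). FOXO3 had one 32.9 kb into the gene (chromosome 6, 108592361 to 108593186), at 89.7, 83.0 and 84.7 in NG and 94.0, 90.7 and 90.0 in SMG.

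Per length, FOXN3 held 2.16 constant regions per 100 kb, FOXJ3 2.51, FOXO3 1.60, FOXP1 1.59, SOX6 0.78 and SOX5 0.48. The median of the 3351 protein-coding genes of 100 kb or longer was 0.73 and their 75th percentile 1.38. FOXO1 and FOXP2, a factor of speech circuits, are also longer than 100 kb and held 0. FOXP2 was covered by 11 regions, each held by 1 library only. FOXN1, the master regulator of thymic epithelium, was the only member without any gene-end peak that held a constant region inside the gene. It lay 13.1 kb past the start (chromosome 17, 28519175 to 28519674), at percentiles of 65.8, 20.4 and 66.1 in NG and 38.0, 44.3 and 38.6 in SMG.

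**Figure D3:**
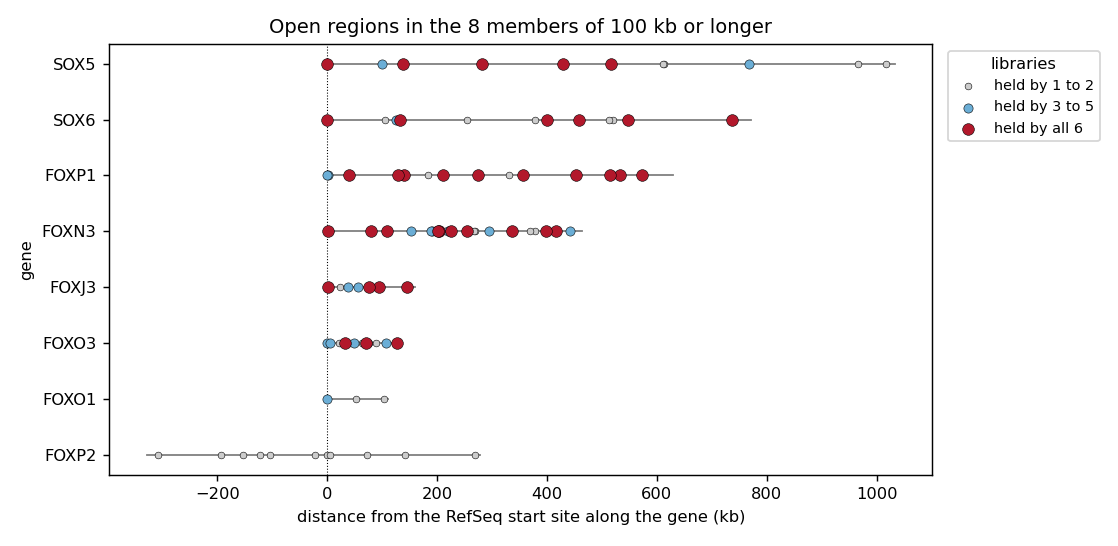
Union regions (points) along the 8 members of 100 kb or longer, by distance from the RefSeq start site in kb (x axis, in the direction of transcription); grey lines are gene bodies and colour gives the number of libraries that held the region. FOXP1 and FOXN3 show 10 regions held by all 6 libraries each, FOXO1 and FOXP2 none.

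The 34 members without a gene-end peak were mostly organ-specific factors. They included FOXA1 and FOXA2 of endoderm, FOXC1 and FOXC2 of vessels and eye, FOXF1 and FOXF2 of gut and lung mesenchyme, FOXE1 and FOXE3 of thyroid and lens, and FOXL1, FOXL2 and FOXL3. FOXI1, FOXI2, FOXI3, FOXQ1, FOXH1, FOXR1, FOXR2, FOXD4, FOXN1, FOXN4 and FOXP2 were also among the forkhead genes. FOXD4 has 5 near copies named FOXD4L in the gene table, so its reads may not have mapped to 1 place and its absence is uncertain. Of the SOX genes the list held SOX3, SOX13, SOX14, SOX21 and SOX30, all of group E (SOX8, SOX9 and SOX10, factors of gonad, cartilage and neural crest) and all of group F (SOX7, SOX17 and SOX18, factors of endothelium and endoderm). For 19 of the 34 genes the nearest union region of any library was more than 10 kb away, and for 6 more than 100 kb. Their median distance to a region held by all 6 libraries was 56.2 kb, against 26.5 kb for all 7922 protein-coding genes without a gene-end peak. SOX9 lay within 526 kb free of any called peak, SOX3 within 515 kb and FOXA1 within 401 kb. FOXC2 and FOXL1, neighbours on chromosome 16, lay near the edge of a peak-free stretch of 753 kb. Their nearest called region was 2.66 and 14.4 kb away. FOXF1, on the same arm, lay in another such stretch of 503 kb. SOX7 and SOX17 had a constant region 3.5 and 2.6 kb from the gene, and FOXH1 had one at 2.3 kb. For FOXC2 the nearest constant region was 11.2 kb away.

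A low CpG content was not a general feature of the members without a peak. A CpG ratio, the observed number of CpG over that expected from the C and G content, was computed over 300 bases around the start site, from 250 before to 50 after. It could be computed for 44 of the 64 members. Among the 20 with a start site and no gene-end peak, the median ratio was 0.74 and 14 (70%) reached 0.6, a common limit for CpG islands. Among all 5906 protein-coding genes of that kind, the median was 0.39 and 36.8% reached 0.6. Members open in all 6 libraries had a median of 0.87 (11 of 12 at 0.6 or more), close to the 0.85 of all 7786 such genes. HOX genes without a peak also had a high median, 0.87 over 13 genes, and the 5 KLF genes had 0.33. Among members without a gene-end peak, the ratio ran from 0.09 in FOXP2 and 0.11 in FOXR2 to 1.02 in FOXC1. For FOXP2 the reference start lies well inside the gene, and a peak overlapped its window only in NG 3, at percentile 2.40. No test was made of these lists. FOXC1 and FOXA1 are shown as CpG-rich start sites with no called peak in any library, in the same layout as above.
FOXC1 (chr6:1609665-1609914, plus strand): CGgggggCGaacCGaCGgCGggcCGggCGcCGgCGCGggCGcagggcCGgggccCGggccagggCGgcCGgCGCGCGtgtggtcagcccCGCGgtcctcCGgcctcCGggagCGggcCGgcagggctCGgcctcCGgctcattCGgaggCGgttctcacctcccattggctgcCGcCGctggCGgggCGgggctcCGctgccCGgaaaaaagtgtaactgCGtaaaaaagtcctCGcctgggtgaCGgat
FOXA1 (chr14:37595250-37595499, minus strand): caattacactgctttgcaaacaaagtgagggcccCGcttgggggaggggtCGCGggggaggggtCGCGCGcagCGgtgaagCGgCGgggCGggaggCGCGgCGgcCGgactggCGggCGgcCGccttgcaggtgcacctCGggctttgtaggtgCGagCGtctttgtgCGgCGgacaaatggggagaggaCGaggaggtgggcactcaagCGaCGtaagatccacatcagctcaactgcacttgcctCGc
The FOXC1 stretch holds 37 CpG dinucleotides and the FOXA1 stretch 26, both more than the 24 of FOXD2 and the 8 of SOX4, which were open in all 6 libraries. These are single examples. Over the 300 bases, members open in all 6 libraries had a median of 30.5 CpG dinucleotides and those open in none 23. SOX4 was the exception among the 12 open members, with a ratio of 0.49.

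**Figure D4:**
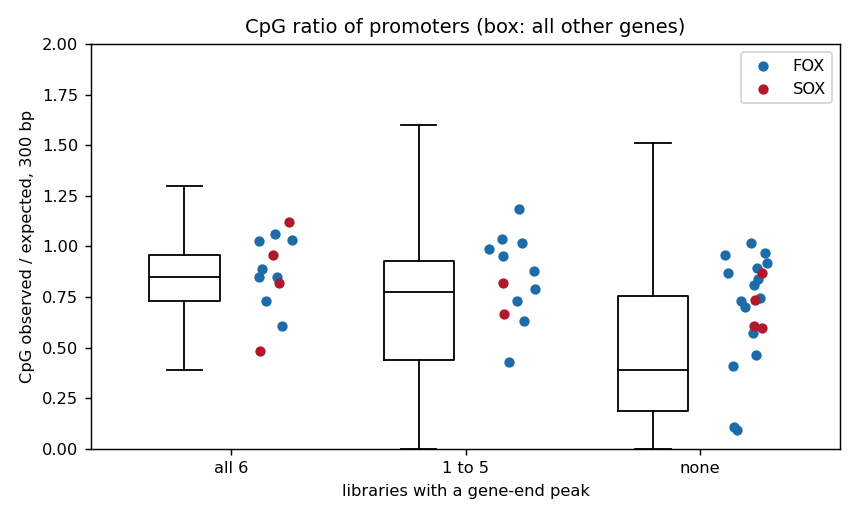
CpG observed over expected in 300 bases at the start site (y axis) by the number of libraries with a gene-end peak (x axis), for 34 FOX (blue) and 10 SOX (red) genes beside all other protein-coding genes (boxes: median and quartiles; whiskers: 1.5 quartile ranges; outliers not drawn). Members without a peak sit mostly above the box of other genes without one, with medians of 0.74 and 0.39.

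Binding motifs of the families themselves were rare in these start-site windows. The forkhead cores TGTTTAC and TGTTTAT, on either strand, were found in 2 of the 44 windows (4.55%), against 5.45% of all 15812 protein-coding windows. The 2 were SOX12 and FOXO4, both with TGTTTAC. The longer SOX core ACAATGG was found in FOXJ3, SOX5 and FOXO4, 3 of 44 (6.82%), against 2.39%. The shorter core ACAAT, which the longer contains, was found in 8 of 44 (18.2%), against 21.0%. Matches are given on the strand of the gene, with the motif or its reverse complement in capitals. They are shown because these members carry a core that forkhead or SOX proteins bind. SOX12 carries the forkhead core, FOXJ3 the SOX core and SOX5 the core of its own family.
SOX12, motif at position −98 from the start: ggcacctcggTGTTTACacggggcggc
SOX5, motif at position −181 from the start: ctcgcctcccCCATTGTtcctactgtc
FOXJ3, motif at position −229 from the start: attgagccacCCATTGTgagttcaaaa
The 4 genes with TGTTTAC or ACAATGG were all open in all 6 libraries. Over all protein-coding genes, TGTTTAC was in 2.27% of the windows of genes open in all 6 libraries and 3.20% of those open in none. For ACAATGG these shares were 1.61% and 3.54%. A match is a description of these letters and not evidence of binding.

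The comparison of the gravity groups asked whether any FOX or SOX gene had called peaks in 1 condition alone. No member did: 0 of 64 were open in every SMG library and in none of the NG group, where 0.1% of all protein-coding genes were, and 0 of 64 the reverse, also 0.1% of all genes. Leaving out NG 1, these counts were again 0 and 0 of 64, where 0.13% and 0.35% of all genes were called. Even 3 open libraries against 0 would give only p = 0.1 in Fisher's exact test (two-sided). FOXB1, FOXK2, FOXO1, FOXP1, FOXP3, SOX1 and SOX2 were open in more SMG than NG libraries, 7 of 64 where 5.88% of all genes were. NG 1 lacked each of these 7. FOXB2, FOXD1, FOXD3 and FOXS1 were open in more NG than SMG libraries, 4 of 64 where 5.01% of all genes were. Open members numbered 18, 26 and 25 in the NG libraries and 24, 25 and 25 in the SMG libraries. The means were 23.0 ± 4.36 and 24.7 ± 0.58 (SD, n = 3 each), a difference of 1.67 genes that was smaller than the spread within NG. Without NG 1 the difference was −0.83 genes, so its direction rests on that library. As a share of members, this was 35.9% ± 6.81 and 38.5% ± 0.90, beside 53.3% ± 2.26 and 53.7% ± 1.23 of all protein-coding genes. For the SOX genes alone the counts were 5, 7 and 7 in NG and 8, 7 and 8 in SMG, and for the FOX genes 13, 19 and 18 and 16, 18 and 17.

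At the level of regions, the 64 genes and their ends were covered by 163 union regions. None was called in a complete group and absent from the other, where 0.411% of all 69562 union regions were SMG-only and 0.26% NG-only. A region was in 2 or more SMG libraries above the number of NG libraries at 12 of the 163, against 3.91% of all regions, and the reverse held at 3, against 3%. Of these 12 regions, 10 were absent in NG 1. The 12 included the regions at the starts of SOX1, SOX2 and FOXO3, both far-end regions of FOXP3 and 3 regions inside FOXN3. The part of the lower peak number of NG 1 in them was not tested. Without NG 1, 2 of the 163, 1 inside FOXN3 and 1 inside SOX5, were SMG-only, against 0.605% of all regions, and 1, inside SOX5, was NG-only, against 1.2%. The left-out NG 1 held both SMG-only regions, at percentiles of 48.4 (FOXN3) and 12.9 (SOX5), and lacked the NG-only region.

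The number of peaks inside a gene was compared for the 11 members with 2 or more constant regions inside the gene, its ends included. FOXN3 had 12, 16 and 18 peaks in NG and 18, 19 and 16 in SMG, with means of 15.3 ± 3.06 and 17.7 ± 1.53 (exact permutation p = 0.5, two-sided, n = 3 each). NG 1 was lowest and the groups overlapped. FOXP1 had 10, 13 and 14 in NG and 15, 14 and 13 in SMG (exact permutation p = 0.5). FOXK1 had 4, 3 and 4 in NG and 6, 3 and 6 in SMG, the smallest p of the 11 genes (exact permutation p = 0.4). FOXO3 had 4, 5 and 6 against 8, 5 and 6 (exact p = 0.5), and FOXJ3 had 5, 8 and 5 against 5, 4 and 6 (exact p = 0.7). SOX6 had 8, 10 and 6 against 7, 10 and 7 (exact p = 1), and SOX5 had 7, 7 and 8 against 8, 6 and 6 (exact p = 0.6). FOXN2 had 2 peaks in every library. The adjusted p was 1 for each member over 14634 genes with a peak inside, and 0.1 is the smallest p that 3 against 3 libraries allow. Of the 28 members with any inner peak, 0 had groups without overlap, against 1.04% of these genes with SMG higher and 0.574% with NG higher.

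**Figure D5:**
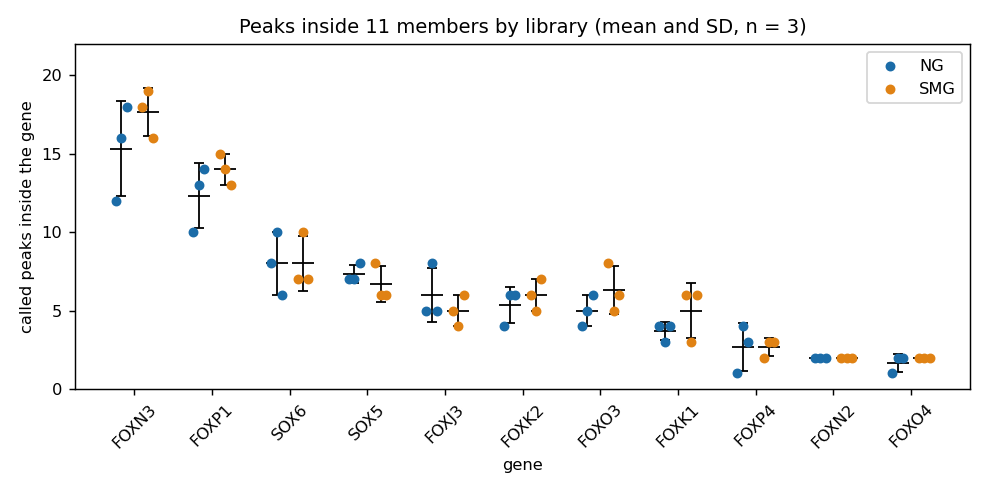
Called peaks inside the gene (y axis) for 11 members (x axis) in each NG (blue) and SMG (orange) library; bars give mean and SD, n = 3. The groups overlap at every gene, as at FOXN3 with 12 to 18 peaks in NG and 16 to 19 in SMG.

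Genes that act with forkhead factors, and HMG-box relatives of the SOX genes, were mostly open in both groups, except for the regulatory T cell list. Over all protein-coding genes, 46.7% were open in all 6 libraries and 39.7% in none. Of 20 regulators of the FOXO factors, 14 were open in all 6 libraries and 1 in none, most strongly SKP2, PIK3CA and AKT2. AKT1, a kinase that phosphorylates FOXO proteins, was the 1 listed gene open in all NG and no SMG libraries, at a mean percentile of 14.6. Of 20 FOXO target genes, 11 were open in all 6 and 1 in none, led by SESN3, CAT and SOD2. Of 15 FOXM1 target genes, 13 were open throughout, led by NEK2, SKP2 and CENPA, while the peak of FOXM1 itself averaged 26.7. Of 16 genes of regulatory T cells and FOXP3 partners, 6 were open throughout and 6 in none, with ENTPD1, CBFB and EZH2 the strongest. Of 17 HMG-box genes outside the SOX symbols, 11 were open throughout, led by HBP1, HMGB2 and CIC, and 4 in none. No listed gene showed the opposite pattern, SMG alone, and over all genes each pattern occurred at 0.1%.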

How the data were processed

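Peak lists of 6 ATAC-seq libraries were used. Per the submitters' processing notes, FastQC, BWA, Bowtie, SAMtools and MACS2 were used with build hg38. Versions, settings, duplicate handling and read shifts were not given in the sources used here. Each deposited list has columns for the integer score, the fold enrichment (a linear ratio), the −log10 p-value and −log10 q-value of each peak and the summit offset, called by the authors in each library separately. Depth is unknown, since the lists hold no read counts. Percentiles ranked the deposited −log10 q-values within a library. Peaks were merged into 69562 union regions (overlap of at least 1 bp), and a constant region was held by all 6 libraries. Genes came from RefSeq GRCh38.p14, and start sites from its promoter table, which held 44 of 64 members. Python 3.11.15, pandas 2.3.3 and SciPy 1.17.1 were used. Tests were exact permutations over libraries, Benjamini-Hochberg adjusted over all genes, and overlap calls and tests were tested on simulated data. Replicate numbers were not used as pairs. Alternatives were other windows, the start-site end, −log10 q of at least 5, equal peak numbers, stricter overlap and leaving out libraries. Named genes were those open in all 6 libraries, in 1 to 5, or with the most constant regions inside the gene (11 with ties), and those known in T cells, thymus or stem cells. Members and lists were chosen with earlier results of these data known. Of the 64 members, 1 is counted in the totals but not reported here by name.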

Additional observations from a re-analysis of the deposited data

How the results depend on the processing

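Counts of members open in all 6 libraries ranged from 12 (500 bp window, or −log10 q of at least 5) to 19 (3 kb window) over the changes of window, peaks and overlap, beside 16, and those open in none from 27 to 39, beside 34. With the start-site end alone, which only 44 members have, 11 were open in all 6 and 21 in none, fewer because fewer genes entered. Leaving out 1 library at a time gave 0 to 1 members open in all SMG and no NG libraries: SOX1 without NG 2 and SOX2 without NG 3. It gave 0 to 1 named members whose numbers of inner peaks did not overlap between groups: SOX5 without SMG 1 and FOXK1 without SMG 2. The difference in open members ran from −0.83 (without NG 1) to 3.17 (without NG 2). The SMG minus NG difference in inner peaks changed sign at SOX5 with −log10 q of at least 5 (0.33 peaks, beside −0.67) and at FOXO4 with the peak centre inside the gene (−0.33, beside 0.33); the cause was not tested. With the replicate number as a block, FOXN3 differed by 2.33 peaks and FOXK1 by 1.33, and sign-flip p-values of the 11 genes were 0.5 to 1 where 0.25 is the smallest possible, so the block changed no call. Over 2729 genes open in 1 to 5 libraries, deviations of same-numbered libraries correlated at −0.00076, 0.023 and −0.029. Such correlations of called peaks cannot show whether same-numbered libraries share a culture or day. The lists hold called peaks only, so differences below the calling threshold could not be detected.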
